A study of Mus musculus with 5 samples.

Results

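Among 16530 cells kept from 5 mouse single-cell RNA libraries of sorted lung group 2 innate lymphoid cells (ILC2s), 189 carried transcripts of the whole classical MHC class II set, H2-Aa, H2-Ab1, H2-Eb1 and Cd74, in the same cell. A cell was called class II-positive when it held at least 1 unique molecular identifier (UMI, which counts each captured transcript 1 time) of each of these 4 genes, and class II-negative when it held none of H2-Aa, H2-Ab1 and H2-Eb1, which gave 14440 cells. The cells in between, with some of the 4 genes only, were left out of the comparison of the classes. The cells were thus chosen by the UMI counts of these 4 genes, whose levels are given as a description.

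All mice were female wild-type C57BL/6 of 4 to 8 weeks of age, and the mice of a group, 5 by the study's methods, were pooled into 1 library. Naïve ILC2s came from mice without a tumour, and tumour-associated (ta) ILC2s came from mice with TC1 lung tumour cells under the skin of the flank, taken at week 2 or week 3. The ta-non-activated ILC2s were sequenced fresh, as were the naïve ILC2s, whereas the ta-activated ILC2s were first cultured for a week with IL-2, IL-33 and TSLP, so that activation and culture cannot be told apart. In all groups, cells negative for lineage markers (T, B, NK and erythroid markers, CD11c, CD11b and Ly-6G/C) and positive for CD45, ST2, CD127 and Thy1.2 were sorted, a gate meant to remove dendritic cells and B cells. Each of the 5 combinations of group and week was 1 library, so the weeks serve as the 2 replicates of ta-non-activated and of ta-activated ILC2s, and the naïve group has no replicate.

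MHC class II molecules present peptides from outside the cell to CD4+ T cells. H2-Aa and H2-Ab1 encode the 2 chains of I-A, H2-Eb1 encodes a chain of I-E, Cd74 encodes the invariant chain that guards the peptide groove until H2-DM exchanges its remnant for a peptide, and H2-DO restrains H2-DM. The genes are switched together by the coactivator Ciita, which is brought to class II promoters by factors bound to their X and Y boxes. Dendritic cells and B cells carry class II at high levels, and ILC2s are known to carry it at lower levels and to engage T cells through it.

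The promoters of 3 of these genes are printed because H2-Aa and H2-Eb1 defined the cells and H2-DMb1 was the gene with the largest rise among those called and higher in every library. The sequences are RefSeq windows (GRCm38.p6) from 250 bases before to 50 bases after the start of the gene, given 5′ to 3′ on the strand of the gene. Capitals mark exact matches, on either strand, to TGATTGG, the letters of the Y box, and to AACNGATG, the letters of the X box. The windows lie on chromosome 17 at chr17:34287774-34288073 (minus strand), chr17:34305617-34305916 (plus strand) and chr17:34152941-34153240 (plus strand).
H2-Aa: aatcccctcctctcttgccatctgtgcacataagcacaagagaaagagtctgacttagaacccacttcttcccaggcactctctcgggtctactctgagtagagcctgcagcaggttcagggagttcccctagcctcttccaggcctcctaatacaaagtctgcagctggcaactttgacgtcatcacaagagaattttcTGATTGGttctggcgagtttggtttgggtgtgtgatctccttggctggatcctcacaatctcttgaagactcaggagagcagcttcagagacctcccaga
H2-Eb1: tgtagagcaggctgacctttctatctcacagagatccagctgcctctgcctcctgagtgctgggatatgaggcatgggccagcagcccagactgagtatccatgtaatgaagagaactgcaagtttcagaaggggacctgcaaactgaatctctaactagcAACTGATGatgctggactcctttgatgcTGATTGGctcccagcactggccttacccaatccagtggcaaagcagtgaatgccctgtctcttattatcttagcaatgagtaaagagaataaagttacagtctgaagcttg
H2-DMb1: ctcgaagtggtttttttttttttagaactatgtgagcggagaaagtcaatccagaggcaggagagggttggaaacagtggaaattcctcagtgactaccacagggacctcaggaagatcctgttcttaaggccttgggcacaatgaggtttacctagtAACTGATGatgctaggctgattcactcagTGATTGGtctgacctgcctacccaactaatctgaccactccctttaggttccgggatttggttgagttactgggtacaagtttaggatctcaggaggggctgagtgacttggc
TGATTGG lay 50 bases before the RefSeq start of H2-Aa, 61 before that of H2-Eb1 and 63 before that of H2-DMb1. AACNGATG lay 89 bases before the start of H2-Eb1 and 92 before that of H2-DMb1, and was not in the H2-Aa window. Of 32851 promoter windows of the same length, 7.82% held TGATTGG, 2.32% held AACNGATG and 0.186% held both, and the matches of the 2 motifs did not overlap. Of the other class II genes with a window, H2-DMb2 and H2-Eb2 held both motifs, H2-Oa and H2-Ob held TGATTGG only, and neither H2-DMa window held either. The start of H2-DMb1 in the GENCODE annotation, from which gene positions are given below, lies upstream of the RefSeq start and of both matches, and the starts of H2-Aa and H2-Eb1 are the same in both. A match describes letters and is not a measured binding site.

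The libraries differed in depth and in make-up. The deposited barcodes held 33522126 UMIs in 6953 naïve cells, 33324823 in 1853 week 2 ta-non-activated cells, 9910201 in 1838 week 3 ta-non-activated cells, 68919437 in 3579 week 2 ta-activated cells and 71126524 in 4405 week 3 ta-activated cells. After the filter of at least 200 genes and under 5% mitochondrial UMIs, 6389, 1823, 1601, 2895 and 3822 cells were kept, in that order. The week 3 ta-non-activated library stood apart, since 933 of its 1526 class II-negative cells (61.1%, 95% exact Clopper-Pearson interval 58.6 to 63.6) held UMIs of at least 3 of 11 T cell genes. Its 8 class II-positive cells did not, apart from 1 cell. The comparison of the classes is therefore also given without the week 3 libraries. The libraries shared 35 barcodes among the kept cells, and none belonged to a class II-positive cell.

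Class II-positive cells were a small share of every library, and the share was highest in the fresh week 2 tumour library. They made up 49 of 6389 naïve cells (0.767%, 95% exact interval 0.568 to 1.01) and 73 of 1823 week 2 ta-non-activated cells (4.0%, 3.15 to 5.01). At week 3 they were 8 of 1601 ta-non-activated cells (0.50%, 0.216 to 0.982). Among cultured cells they were 58 of 2895 at week 2 (2.00%, 1.52 to 2.58) and 1 of 3822 at week 3 (0.0262%, 0.000662 to 0.146). Both week 2 libraries thus stood above both week 3 libraries and above the naïve library. These intervals, and all others on a single library, cover counting error only. The mean share was 1.01% in ta-activated and 2.25% in ta-non-activated ILC2s (n = 2 libraries each, difference -1.24 percentage points), with a two-sided exact permutation p of 0.667, where 0.333 is the smallest p that 2 against 2 libraries can give.

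Depth differed between the classes and between the libraries. The median class II-positive cell held 6227 UMIs against 4501 in class II-negative naïve cells, 25177 against 15611 at week 2 and 3258.5 against 4337 at week 3 in ta-non-activated ILC2s, and 28478.5 against 11099 in week 2 ta-activated ILC2s. The lone week 3 ta-activated cell held 29087 against a median of 11492, so the lowest share was not in a shallow library. For equal depth, cells with fewer than 2000 UMIs were left out, 2 naïve class II-positive cells among them. The others were thinned to 2000 UMIs before the rule was applied: 6147 naïve, 1809 and 1495 ta-non-activated, and 2822 and 3714 ta-activated cells. The rule was then met by 20 naïve cells (0.325%) and by 3 and 6 ta-non-activated cells at weeks 2 and 3 (0.166% and 0.401%). Among ta-activated cells, 17 of week 2 (0.602%) met it, and none of 3714 at week 3. The order of the libraries therefore changed at equal depth, and the week 2 ta-non-activated share went from the highest to the lowest of the 4 libraries that kept any such cell. A count of 0 in the week 3 ta-activated library has an exact upper limit of 0.0993%.

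**Figure D1:**
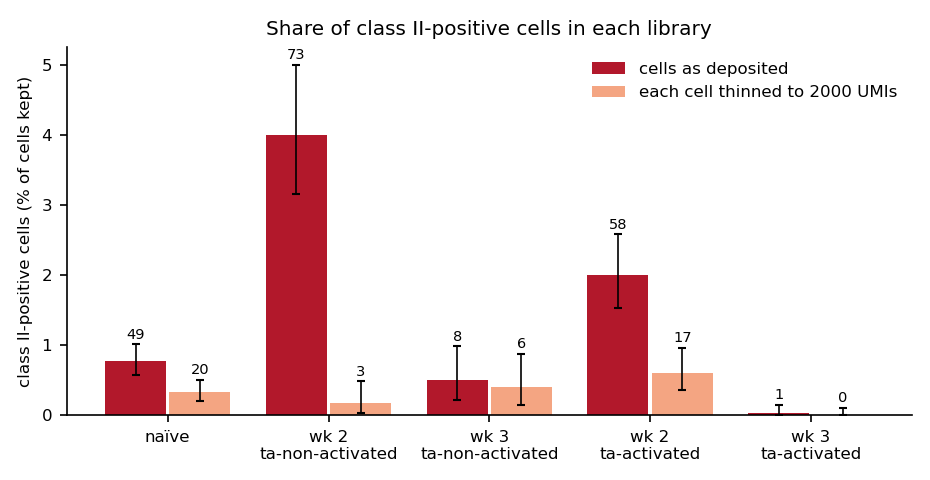
Share of class II-positive cells (y axis, % of cells) in each of the 5 libraries, as deposited (dark bars, of cells kept) and after thinning to 2000 UMIs (light bars, without cells of fewer UMIs), with 95% exact intervals for counting error and the number of class II-positive cells above each bar. The week 2 ta-non-activated library stands highest, at 4.0%, as deposited, and lowest of the libraries with any such cell, at 0.166%, after thinning.

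The 4 genes of the rule were not spread alike over the cells. H2-Aa was found in 1.88% of naïve cells, 5.05% and 1.25% of ta-non-activated cells at weeks 2 and 3, and 2.76% and 0.105% of ta-activated cells. H2-Eb1 ran beside it at 2.10%, 5.76%, 0.999%, 3.25% and 0.209% in the same order. These 2 genes were thus confined to a few percent of cells in each library, fewest among ta-activated cells of week 3. H2-Ab1 had UMIs in 2.11%, 6.97% and 3.69% of cells in the fresh libraries but in 28.1% (26.5 to 29.8) and 20.3% (19.1 to 21.6) of the cultured ones. Cd74 had UMIs in 5.27%, 31.6% and 4.0% of fresh and in 31.5% and 48.0% of cultured cells. The cultured libraries therefore held many cells with H2-Ab1 or Cd74 UMIs and no H2-Aa.

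The class II-positive cells held most of the H2-Aa transcripts of every library, and most of the H2-Eb1 transcripts except in the week 3 ta-activated library (9 of 21 UMIs, 42.9%). They carried 79.8% of the H2-Aa UMIs of naïve cells, 91.8% and 71.4% of those of ta-non-activated cells (weeks 2 and 3), and 97.5% of those of week 2 ta-activated cells. Of H2-Ab1 UMIs they carried 71.0%, 85.5%, 41.2% and 35.9% in those 4 libraries, and of Cd74 UMIs 59.4%, 65.1%, 45.5% and 35.2%. Most UMIs of these 2 genes thus lay outside the class II-positive cells in the week 3 ta-non-activated library and in both cultured ones. Among week 2 ta-activated cells, 2042 H2-Ab1 UMIs and 8319 Cd74 UMIs lay outside the 58 class II-positive cells, beside 29 H2-Aa and 83 H2-Eb1 UMIs. At week 3 the counts outside the 1 class II-positive cell were 1524 for H2-Ab1, 11922 for Cd74, 3 for H2-Aa and 12 for H2-Eb1.

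**Figure D2:**
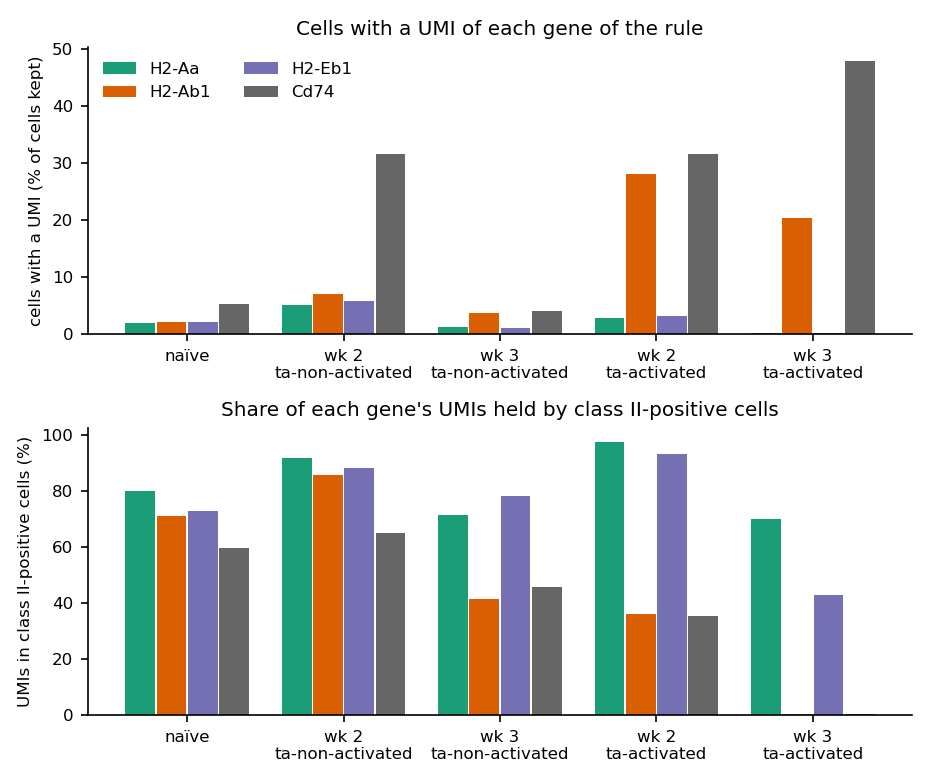
Upper panel, cells with at least 1 UMI of H2-Aa, H2-Ab1, H2-Eb1 and Cd74 (y axis, % of cells kept), and lower panel, share of each gene's UMIs found in class II-positive cells (y axis, %), for the 5 libraries. H2-Ab1 and Cd74 reach 28.1% and 31.5% of week 2 ta-activated cells while H2-Aa and H2-Eb1 stay at 2.76% and 3.25%.

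Free RNA can place UMIs in droplets whose cell does not express a gene. The genes of the rule were therefore also read, outside the class II-positive cells, in cells thinned to 2000 UMIs. The cells read had at least 3 T cell genes and no Gata3 or Il1rl1 UMI. Among week 2 ta-activated cells, H2-Ab1 was found in 3 of 58 such cells (5.17%, 1.08 to 14.4) and in 101 of 1891 cells with Gata3 or Il1rl1 (5.34%, 4.37 to 6.45), whose median depths before thinning were 8842.5 and 13157 UMIs. Cd74 was found in 8.62% (2.86 to 19.0) and 11.2% (9.77 to 12.7) of the same cells. At week 3 the shares were 4.17% of 24 cells against 3.79% for H2-Ab1 and 16.7% against 19.3% for Cd74, with median depths of 6805 and 12176 UMIs. In the cultured libraries the H2-Ab1 and Cd74 shares were thus near those of few T cell-like cells, with wide intervals. Those cells went through the same culture, and whether they lack the 2 genes was not tested. Whether the H2-Ab1 and Cd74 UMIs outside the rule come from free RNA or from expression was therefore not tested either. In the week 3 ta-non-activated library, where 768 such cells were available (median 6173.5 against 3174 UMIs), Cd74 was found in 0.651% (0.212 to 1.51) against 2.81% (1.61 to 4.52) of Gata3 or Il1rl1 cells, and H2-Ab1 in 1.04% against 0.702%. The Cd74 share there was above that of the T cell-like cells, with intervals that did not overlap. In the naïve library (304 such cells, median 4836.5 against 4611.5 UMIs) Cd74 was found in 0.987% (0.204 to 2.86) against 2.48% (2.07 to 2.93), and H2-Ab1 in 0.329% against 0.419%, with overlapping intervals. In the week 2 ta-non-activated library only 13 such cells were available (median 9190 against 15022.5 UMIs), of which 1 held Cd74 and 2 held H2-Ab1, against 6.83% and 0.735% of Gata3 or Il1rl1 cells, so the Cd74 share of that library cannot be told apart from background. H2-Aa and H2-Eb1 were each found in at most 2 of these T cell-like cells in any library and in at most 0.702% of the Gata3 or Il1rl1 cells.

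Within the class II-positive cells, the summed UMIs of the 4 genes had a median of 19 in naïve cells (5 to 226), 51 in week 2 ta-non-activated cells (8 to 225), 16.5 at week 3 (4 to 102), 105 in week 2 ta-activated cells (7 to 743) and 80 in the week 3 ta-activated cell. In CPM, a gene's UMIs over all UMIs of these cells scaled to parts per 1000000, Cd74 stood at 2059, 1449, 3169, 1998 and 2028, H2-Aa at 907, 191, 1393, 506 and 241, H2-Ab1 at 656, 254, 1393, 506 and 172, and H2-Eb1 at 756, 231, 1358, 497 and 309, in the same order. These levels are not compared between libraries, since 1 UMI of each gene meets the rule and amounts to more CPM in a shallower cell. At the edge of the rule, 52 class II-positive cells held some gene of the rule at exactly 1 UMI, and their summed UMIs had a median of 19. Just outside it, 91 cells held 3 of the 4 genes, with a median of 10 UMIs. The gene they lacked was H2-Aa in 42, H2-Eb1 in 26, H2-Ab1 in 20 and Cd74 in 3.

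UMIs of 4 genes that define dendritic cells or B cells were absent or rare in the class II-positive cells, and rare in the class II-negative cells as well. Itgax (CD11c), Cd209a and Cd79a had 0 UMIs in all 189 cells, and Flt3 had 2 UMIs, in 2 week 2 ta-activated cells that also held Gata3 or Il1rl1 and whose median depth was 141444 UMIs. No class II-positive cell had a UMI of these 4 genes without Gata3 or Il1rl1 (0 of 189, exact upper limit 1.93%). Gata3, the master regulator of ILC2s, or Il1rl1, which encodes the IL-33 receptor ST2, was found with none of the 4 dendritic or B cell genes in 152 of 189 cells (80.4%, 74.0 to 85.8), in 13016 of 14440 class II-negative cells (90.1%, 89.6 to 90.6) and in 97.2% of 567 class II-negative cells chosen to match the class II-positive cells in UMIs within each library. The remaining 35 cells (18.5%) held neither gene: 10 of 49 naïve, 3 of 73 and 4 of 8 ta-non-activated, and 18 of 58 week 2 ta-activated cells.

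Longer marker lists were read next. Of the 20 dendritic cell genes, 9, 9, 3, 12 and 2 had UMIs in the class II-positive cells of the naïve, ta-non-activated week 2 and 3 and ta-activated week 2 and 3 libraries. Their summed level was 402, 346, 453, 421 and 309 CPM against 195, 217, 184, 407 and 296 in class II-negative cells, and the most abundant was Cst3, a protease inhibitor made by many cell types, in every library. Itgax, Cd209a, Clec9a, Clec10a, Cd209d and Sirpa were at 0. The 9 genes with UMIs in naïve class II-positive cells were Cst3, Zbtb46, Batf3, Irf8, Mgl2, Ccr7, Wdfy4, Naaa and Ccl17. Those of the week 2 ta-non-activated library were Cst3, Zbtb46, Batf3, Irf8, Ccr7, Fscn1, Naaa, Plbd1 and Ccl22. Cells with at least 3 of the 20 genes made up 30 of 58 week 2 ta-activated class II-positive cells (51.7%), against 2.00% of class II-negative cells and 10.3% of the depth-matched ones, and 0 of 58 once thinned. In week 2 ta-non-activated cells the shares were 17.8%, 1.5% and 3.2%, and 0 of 73 once thinned. In naïve cells they were 14.3% (7 of 49), 0.764% and 3.4%, and after thinning 2 of 47 class II-positive cells (4.26%) still held 3, against 0.101% of class II-negative and 0 of 141 depth-matched cells. Such cells were thus commoner among class II-positive cells of these 3 libraries, and after thinning some were left in the naïve one. The genes behind the week 2 ta-activated share besides Cst3 were Ccr7 in 27 cells, Batf3 in 22 and Irf8 in 22. The part of dendritic cells in the results below was otherwise not tested.

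B cell genes summed to 92.7, 17.2, 0, 41.1 and 34.4 CPM in class II-positive against 79.7, 8.63, 141, 41.4 and 18.3 CPM in class II-negative cells, with Ms4a1, Pax5 and Ebf1 at 0 in the class II-positive cells of every library. Macrophage and monocyte genes summed to 73.2, 11.1, 104, 140 and 0 CPM against 28.9, 2.42, 755, 24.2 and 14.4 in class II-negative cells, led by Lyz2 in naïve and Plac8 in week 2 ta-activated class II-positive cells, with Csf1r, C1qa, C1qb, C1qc, Mrc1 and Marco at 0. This list was thus higher in class II-positive cells of the 3 libraries that held most of them, and no such cell held 3 of its genes. In the naïve library the 10 class II-positive cells without Gata3 or Il1rl1 held 384 CPM, all of it Lyz2, against 134 in such class II-negative cells. The 39 with Gata3 or Il1rl1 held 30.5 against 20.4 CPM. Plasmacytoid dendritic cell genes summed to 437, 237, 348, 784 and 791 CPM against 218, 315, 1791, 1168 and 1335 CPM, with Siglech at 0. Granulocyte genes reached at most 0.442 CPM and mast cell genes at most 34.8 CPM, against at most 1.81 and 80.7 CPM in class II-negative cells. At least 3 of 15 ILC2 genes were found in 47 of 49, 73 of 73, 8 of 8, 54 of 58 and 1 of 1 class II-positive cells. At 2000 UMIs per cell the shares were 89.4% in naïve, 82.2% and 6 of 8 in ta-non-activated and 46.6% (27 of 58) in week 2 ta-activated class II-positive cells, against 97.3%, 83.5%, 43.2% and 93.8% of class II-negative cells. By this list the class II-positive cells were ILC2-like in the fresh libraries, whereas those of the week 2 ta-activated library held fewer ILC2 genes at equal depth.

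Gata3 itself was lower in class II-positive cells of 4 of 5 libraries. Its level was 529 CPM (95% exact Poisson interval 461 to 605) against 786 in naïve cells, 225 against 347 and 313 against 197 in ta-non-activated cells at weeks 2 and 3, and 209 against 664 and 413 against 973 in ta-activated cells. The difference of -0.97 (SE 0.32) on the log2 scale did not pass the test across libraries (edgeR quasi-likelihood, adjusted p = 0.148). Il1rl1 stood at 363 against 804 CPM in naïve cells, 38.0 against 57.5 and 209 against 86.4 in ta-non-activated, and 38.0 against 31.3 and 68.8 against 127 in ta-activated cells (log2 difference -0.47, adjusted p = 0.919 by edgeR). It was detected in 23 of 49 naïve class II-positive cells, against 81.6% of class II-negative ones.

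To ask what else distinguished class II-positive cells, UMIs were summed per library and class and compared across the 5 libraries with the library as a pairing factor (edgeR quasi-likelihood test, Benjamini-Hochberg adjustment, the 4 genes of the rule left out). Of 9904 genes tested, 85 rose (0.858%) and 48 fell (0.485%), 1.34% in all, at an adjusted p under 0.05, and 843 had an unadjusted p under 0.05. The median log2 difference of all genes was -0.13. The sums of the 2 week 3 libraries rest on 8 cells and 1 cell. Without both, all 133 genes kept their direction and 130 had an unadjusted p under 0.05, but 0 of 11302 genes passed after adjustment by edgeR (1255 unadjusted, lowest adjusted p 0.0697). Against depth-matched class II-negative cells, 10 of 6269 genes (0.16%) passed, all 10 among the 133.

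The class II accessory genes H2-DMa and H2-DMb1, the 2 chains of the peptide exchanger H2-DM, rose with the genes of the rule in every library. H2-DMa (chr17:34119541-34139101, plus strand) stood at 75.6 CPM (51.4 to 107) against 5.15 in naïve cells, 41.7 (33.5 to 51.3) against 3.34 in week 2 ta-non-activated cells and 111 (97.6 to 126) against 19.2 in week 2 ta-activated cells. At week 3 it stood at 104 (3 UMIs) against 32.0 in ta-non-activated and at 138 (4 UMIs) against 9.75 in ta-activated cells. It was found in 19 of 49, 44 of 73, 3 of 8, 48 of 58 and 1 of 1 class II-positive cells. The log2 difference was 2.99 (SE 0.35, edgeR adjusted p = 2.79e-06), and 3.13 against depth-matched cells (edgeR adjusted p = 5.2e-04).

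H2-DMb1 (chr17:34153072-34160230, plus strand), whose promoter is printed above, stood at 31.7 CPM (16.9 to 54.2) against 0.518 in naïve cells, 58.9 (49.1 to 70.0) against 0.512 in week 2 ta-non-activated and 61.0 (51.2 to 72.1) against 4.90 in week 2 ta-activated cells. The week 3 values of 34.8 against 4.60 and 34.4 against 3.59 CPM rest on 1 UMI each. It had the largest difference among the named genes that rose, 4.71 (SE 0.50, edgeR adjusted p = 4.69e-07), and was found in 9 of 49, 56 of 73, 1 of 8, 48 of 58 and 1 of 1 class II-positive cells. The neighbouring H2-DMb2, a close copy whose reads may be shared with H2-DMb1, was too low in the week 3 libraries to be tested. It stood at 17.1 against 0.0648 CPM in naïve cells, 12.1 against 0 in week 2 ta-non-activated and 41.5 against 0.474 in week 2 ta-activated cells, and was at 0 in the class II-positive cells of week 3.

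Ciita, the coactivator, was scarce but also rose (log2 difference 2.81, SE 0.50, edgeR adjusted p = 1.22e-03). Its level was 2.44 against 0.259 CPM in naïve cells, 2.78 against 0.239 in week 2 ta-non-activated and 15.5 (10.8 to 21.5) against 2.33 in week 2 ta-activated cells, with 1, 6 and 35 UMIs, and 0 in the class II-positive cells of week 3. Only the week 2 ta-activated value rests on more than 6 UMIs. Ciita was too low to be tested against depth-matched cells or in cells limited to Gata3 or Il1rl1 UMIs, and did not pass without both week 3 libraries (log2 difference 2.91, edgeR adjusted p = 0.222). H2-Oa, a chain of H2-DO, stood at 73.2 against 42.3, 9.73 against 6.38, 34.8 against 20.3, 34.9 against 14.3 and 0 against 10.8 CPM and did not pass (log2 difference 0.74, edgeR adjusted p = 0.506). H2-Ob stood at 7.32 against 0.518 CPM in naïve and 3.54 against 0.135 CPM in week 2 ta-activated cells and was too low to be tested.

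No protease or general promoter factor of the pathway passed the test in the full comparison. Of 21 listed genes beside the rule, 16 were tested, 3 rose (Ciita, H2-DMa and H2-DMb1), against 0.858% of all genes, none fell, and the median log2 difference was 0.03, against -0.13 over all genes. Ctss, the cathepsin that trims the invariant chain in antigen-presenting cells, stood at 115 against 34.5, 86.2 against 50.3 and 174 against 15.1 CPM in fresh cells but at 164 against 244 and 34.4 against 240 CPM in cultured cells (log2 difference 0.43, edgeR adjusted p = 0.969). Ctsl was lower in all 5 libraries without passing (log2 difference -1.35, edgeR adjusted p = 0.0565). It fell by 1.39 when both classes were limited to cells with Gata3 or Il1rl1 (edgeR adjusted p = 0.0187).

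**Figure D3:**
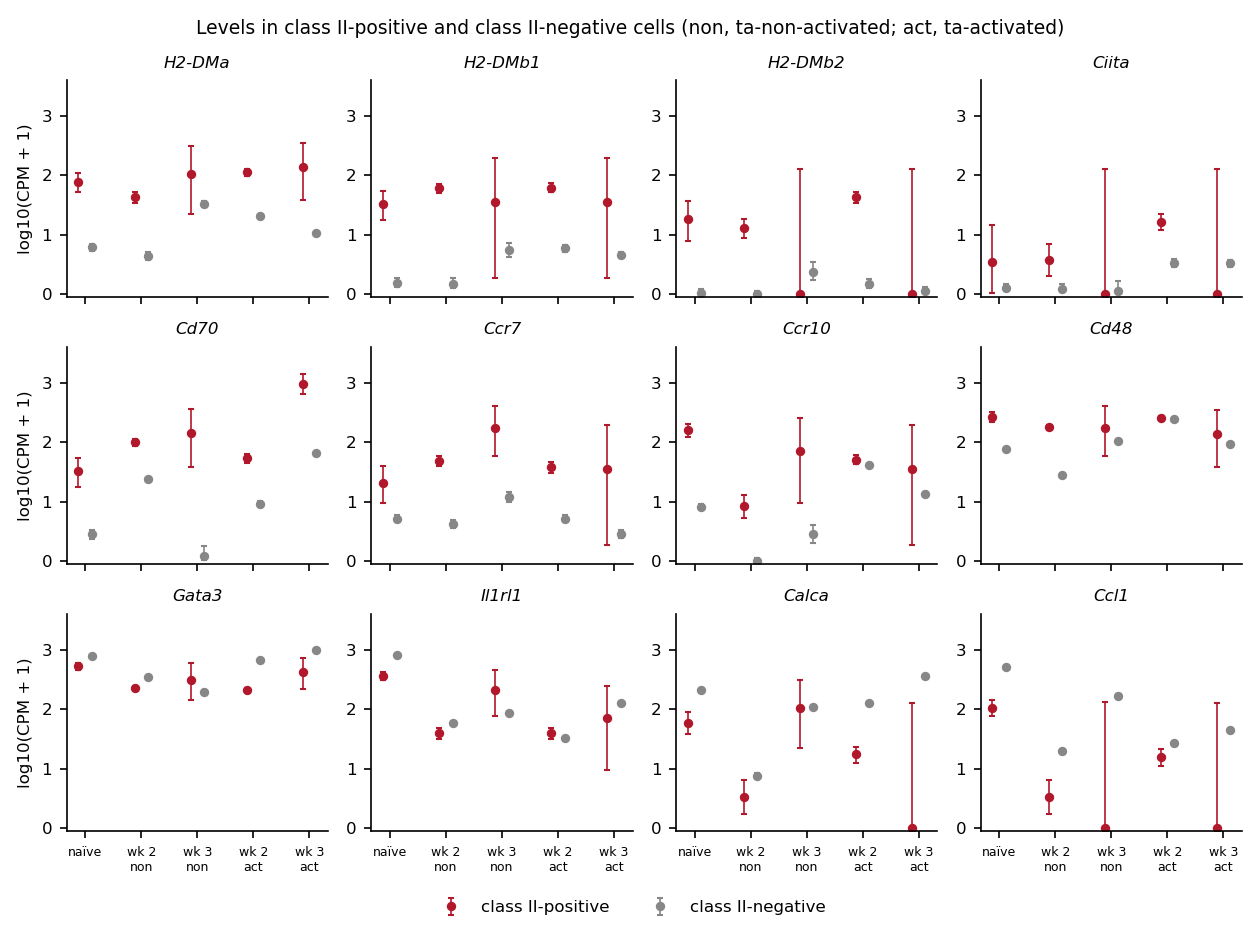
Levels (y axis, log10 of CPM plus 1) of 12 genes in class II-positive (red) and class II-negative (grey) cells of the 5 libraries, with 95% exact Poisson intervals for counting error. H2-DMa, H2-DMb1, Cd70 and Ccr7 lie higher in the class II-positive cells of all 5 libraries, and the wide bars of week 3 show the 8 cells and the 1 cell behind them.

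Besides H2-DMa and H2-DMb1, 4 genes rose and were higher in every library, against 146 of 9904 genes (1.47%) that were higher in all 5 whether called or not. Cd70, the costimulatory ligand of CD27, stood at 31.7 against 1.85 CPM in naïve cells, 99.2 against 22.6 and 139 against 0.230 in ta-non-activated cells at weeks 2 and 3, and 53.0 against 8.19 and 963 against 65.0 in ta-activated cells. The log2 difference was 3.15 (SE 0.39, edgeR adjusted p = 4.90e-06), and 2.27 against depth-matched cells. Its UMIs lay in 5 of 49, 47 of 73, 2 of 8, 15 of 58 and 1 of 1 class II-positive cells, and the value of 963 CPM is 28 UMIs of 1 cell.

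Ccr7, the receptor that guides cells to lymph nodes, stood at 19.5 against 4.21 CPM in naïve cells, 47.3 against 3.24 and 174 against 11 in ta-non-activated, and 36.7 against 4.19 and 34.4 against 1.89 in ta-activated cells. It was found in 6 of 49, 30 of 73, 2 of 8, 27 of 58 and 1 of 1 class II-positive cells (log2 difference 3.16, SE 0.39, edgeR adjusted p = 3.45e-06; 2.57 against depth-matched cells). Ccr7 is also a gene of the dendritic cell list, and the part of dendritic cells in its difference was not tested. Agpat4, an acyltransferase of lipid synthesis, differed by 1.37 (SE 0.31, edgeR adjusted p = 0.0146), from 105 against 34.7 CPM in naïve cells to 172 against 27.0 in the week 3 ta-activated cell.

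Ccr10, a skin and mucosal homing receptor, stood at 156 against 7.29 CPM in naïve cells, 7.42 against 0 in week 2 ta-non-activated cells and 49.9 against 40.4 in week 2 ta-activated cells (log2 difference 3.02, SE 0.62, edgeR adjusted p = 6.01e-03). Its UMIs lay in 6 of 49, 9 of 73 and 20 of 58 of these class II-positive cells. The size of the Ccr10 difference thus varied between libraries. With cells thinned before the rule was applied it was -0.29, where the median over all genes moved from -0.13 to -0.74.

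The costimulation list held further members that moved. Of 12 genes, 8 were tested, 2 rose (Cd70 and Cd83), against 0.858% of all genes, and the median log2 difference was 1.20. Cd83, a marker of mature antigen-presenting cells that stabilises surface class II, stood at 137 against 12.4 CPM in naïve cells, 13.0 against 19.5 and 174 against 7.02 in ta-non-activated cells, and 9.28 against 0.0677 and 0 against 1.63 in ta-activated cells (log2 difference 2.81, SE 0.63, edgeR adjusted p = 0.0136). The class II-positive cells had the lower value in the week 2 ta-non-activated library and, with 1 cell, in the week 3 ta-activated one. Cd48 was higher in all 5 libraries, at 263 against 75.3 CPM in naïve and 177 against 26.6 CPM in week 2 ta-non-activated cells, without passing (log2 difference 1.10, edgeR adjusted p = 0.193). With both classes limited to Gata3 or Il1rl1 cells, 5 of the 8 rose: Tnfsf4 (OX40L), Tnfsf9 (4-1BBL), Cd70, Cd83 and Cd48. In that comparison 330 of 9231 genes (3.57%) passed in either direction, of which 239 rose. That comparison was not matched in depth. Against depth-matched cells 5 were tested and Cd70 alone rose, and without both week 3 libraries none of 9 passed.

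Among the genes that fell, 39 of 48 were lower in every library, but the 1 cell of the week 3 ta-activated library was at 0 for 33 of them and for 5591 of the 9904 genes tested, and 748 genes (7.55%) were lower in all 5 libraries whether called or not. Calca, which encodes the ILC2 product CGRP, stood at 58.5 against 209 CPM in naïve cells, 2.32 against 6.48 and 104 against 108 in ta-non-activated cells, and 16.4 against 125 and 0 against 366 in ta-activated cells (log2 difference -2.34, SE 0.41, edgeR adjusted p = 1.22e-03). Slc7a8, an amino acid transporter, stood at 43.9 against 197, 5.10 against 22.0, 0 against 19.1, 3.54 against 33.0 and 0 against 36.0 CPM (log2 difference -2.60, SE 0.39, edgeR adjusted p = 9.29e-05), and its difference from depth-matched cells was -2.70. Both genes were thus lower in all 5 libraries, and Calca was nearly level among ta-non-activated cells of week 3.

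The chemokine genes Cxcl2 and Ccl1 fell as well. Cxcl2, a neutrophil attractant, stood at 285 against 739, 1.85 against 63.4, 313 against 375, 1.33 against 23.9 and 0 against 0.813 CPM (log2 difference -2.64, SE 0.49, edgeR adjusted p = 2.21e-03). Ccl1, a ligand of CCR8, stood at 105 against 518 CPM in naïve cells and 2.32 against 18.8 CPM in week 2 ta-non-activated cells (log2 difference -2.20, SE 0.42, edgeR adjusted p = 3.01e-03). Hba-a1, a haemoglobin chain whose transcripts are common in free RNA, had the largest fall, -4.28 (SE 0.63, edgeR adjusted p = 9.29e-05), from 52.7 CPM in class II-negative to 0.884 CPM in class II-positive week 2 ta-activated cells. The other named falls, in order of size, were Ly6c1 (-3.83), Olfr1259 (-3.66), Creb5 (-2.83), Ino80dos (-2.78), Gpr174 (-2.72), Tcf7l1 (-2.72), Lpcat2 (-2.70), Rnls (-2.42), Rnase4 (-2.28), Epcam (-2.26) and Fez1 (-2.25).

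Type 2 products were read as a list. Of 12 genes, 11 were tested, none rose and 2 fell (Bmp7 and Ccl1), against 0.485% of all genes that fell, with a median log2 difference of -0.58. Against depth-matched cells Ccl1 alone of 8 fell, and none of 12 passed without both week 3 libraries. Il13 was at 244 (198 to 297) against 52.5 CPM in naïve cells, 6813 against 9076 and 488 against 18.8 in ta-non-activated, and 2738 against 2927 and 928 against 3504 in ta-activated cells (log2 difference 0.47, edgeR adjusted p = 0.97). The naïve and week 3 ta-non-activated class II-positive cells thus held more Il13 than their class II-negative neighbours, and the other 3 libraries less. All 73 week 2 ta-non-activated class II-positive cells had Il13 UMIs. At their median depth of 25177 UMIs and at 6813 CPM this share is saturated and does not compare the classes. Of the 15 ILC2 genes, all were tested, none rose and 1 fell (Calca), with a median of -0.42.

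Of the class I and interferon lists, 1 gene passed. Of 13 class I and peptide loading genes, 13 were tested and none passed (median -0.02). Of 17 interferon gamma response genes, 16 were tested and none passed (median -0.15). Their summed level was 1568 CPM (1449 to 1694) in naïve class II-positive cells, against 852 in class II-negative and 846 in depth-matched cells. In ta-non-activated cells it was 1608 against 1630 and 1254 against 956 CPM at weeks 2 and 3. In ta-activated cells it was 3015 against 3833 and 963 against 2747 CPM. Interferon gamma is the best known inducer of Ciita. Of 13 type I interferon response genes, 10 were tested and 1 fell, against 0.485% of all genes (Rsad2, log2 difference -2.75, edgeR adjusted p = 9.15e-03, median of the list -0.58). With both classes limited to Gata3 or Il1rl1 cells, 3 of 7 tested fell (Ifit1, Isg15 and Irf7, median -0.89), where 91 of all 9231 genes fell. None of 5 passed against depth-matched cells (median -0.24) and none of 11 without both week 3 libraries (median -0.33). The summed level of this list was 229 against 92.2 CPM in naïve cells, 729 against 334 and 383 against 677 in ta-non-activated, and 2891 against 6050 and 1994 against 9121 in ta-activated cells. The summed level was thus higher in class II-positive cells of the naïve and week 2 ta-non-activated libraries and lower in those of the other 3. In the week 2 ta-non-activated library Ifitm3 alone gave 481 of the 729 CPM, against 8.08 CPM in class II-negative cells. Bst2 was lower there, at 202 against 298 CPM, so the higher sum of that library rests on Ifitm3.

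Some genes of other lymphoid cells rose. Of 11 NK or ILC1 genes, 5 were tested and 3 rose, Nkg7, Klrd1 and Xcl1, against 0.858% of all genes that rose, and none of 8 passed without both week 3 libraries. Nkg7, a cytotoxic granule protein, stood at 305 (254 to 363) against 49.3 CPM in naïve cells, 4.17 against 3.58 and 34.8 against 80.8 in ta-non-activated, and 104 (91.0 to 118) against 12.4 in week 2 ta-activated cells (log2 difference 1.72, edgeR adjusted p = 0.0323). Klrd1 (CD94) stood at 31.7 against 10.0 CPM in naïve and 165 against 7.92 CPM in week 2 ta-activated cells, and was at 0 in the class II-positive cells of both ta-non-activated libraries. The higher values thus lay in the naïve and the week 2 ta-activated library. Cells with at least 3 NK or ILC1 genes were 10 of 49 naïve (20.4%, 10.2 to 34.3) and 23 of 58 week 2 ta-activated class II-positive cells (39.7%, 27.0 to 53.4), against 2.04% and 1.72% of depth-matched cells. At 2000 UMIs per cell the shares were 8.51% (4 of 47) and 5.17% (3 of 58), against 0.709% and 0.575%. Nkg7 also passed against depth-matched cells, where 2 of the 11 genes were tested.

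Of the 9 ILC3 or lymphoid tissue inducer (LTi) genes, 4 were tested and 1 rose, against 0.858% of all genes: Ccr6, a receptor for CCL20, at 51.2 against 11.4, 4.17 against 0.512, 69.6 against 2.42 and 33.6 against 2.30 CPM in the 4 libraries with over 1 cell (log2 difference 2.91, SE 0.44, edgeR adjusted p = 1.35e-04). At least 3 genes of this list were found in 17 of 58 week 2 ta-activated class II-positive cells (29.3%, 18.1 to 42.7), against 0.575% of depth-matched cells, and in 7 of 49 naïve ones (14.3%, 5.94 to 27.2), against 5.44%. After thinning the shares were 3.45% (2 of 58) against 0 of 174 and 8.51% (4 of 47) against 1.42%. In the week 2 ta-non-activated library no class II-positive cell held 3. Il22 stood at 722 CPM there, against 182 CPM in class II-negative and 359 CPM in depth-matched cells. T cell genes gave no call (7 of 11 tested), and their median turned from -0.60 to 0.096 without both week 3 libraries and to 0.18 against depth-matched cells. Cd3g reached 1315 against 206 CPM in week 2 ta-activated cells. Of 9 alveolar genes, 2 were tested, of which Epcam fell (log2 difference -2.26) and Napsa, an aspartic protease, rose (log2 difference 2.18, edgeR adjusted p = 2.21e-03). Over all genes, 0.858% rose and 0.485% fell. Napsa was found in 49 of 58 week 2 ta-activated class II-positive cells.

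Cell cycle genes were much higher in class II-positive cells of 2 of the 5 libraries, with no call across libraries. All 12 listed genes were tested and none passed (median log2 difference 1.58). Mki67 stood at 249 (203 to 302) against 9.46 CPM in naïve cells, 260 (239 to 282) against 18.3 and 34.8 against 80.3 in ta-non-activated cells, 202 (184 to 222) against 126 in week 2 ta-activated cells and 0 against 193 in the week 3 ta-activated cell. Top2a followed it, at 334 against 17.7 CPM in naïve cells and 478 against 46.6 CPM in week 2 ta-non-activated cells. The difference was thus large in the naïve and week 2 ta-non-activated libraries, small in the week 2 ta-activated library and of the opposite sign at week 3.

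Counted by cell, 66 of 73 week 2 ta-non-activated class II-positive cells (90.4%, 81.2 to 96.1) held at least 3 cell cycle genes, against 34.6% of class II-negative and 63.9% of depth-matched cells. At 2000 UMIs per cell the shares were 57.5%, 3.92% and 8.68%. In naïve cells the shares were 14.3% (5.94 to 27.2), 1.01% and 4.76%, and after thinning 12.8%, 0.304% and 0.709%. In week 2 ta-activated cells, 70.7% (57.3 to 81.9) stood against 30.0% of class II-negative but 62.6% of depth-matched cells, and thinned values were 34.5%, 16.0% and 36.2%. None of the 8 week 3 ta-non-activated cells held 3 of the genes. The difference was thus also present at equal depth in the naïve and week 2 ta-non-activated libraries. In the week 2 ta-activated one it was present after thinning against all class II-negative cells, and not against the depth-matched ones. With both classes limited to Gata3 or Il1rl1 cells, 9 of the 12 genes rose (Mki67, Top2a, Cdk1, Birc5, Pclaf, Ube2c, Cenpf, Ccnb1 and Ccna2, median 1.70), where 239 of all 9231 genes rose. None of 11 passed against depth-matched cells (median 1.34) and none of 12 without both week 3 libraries (median 2.68).

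**Figure D4:**
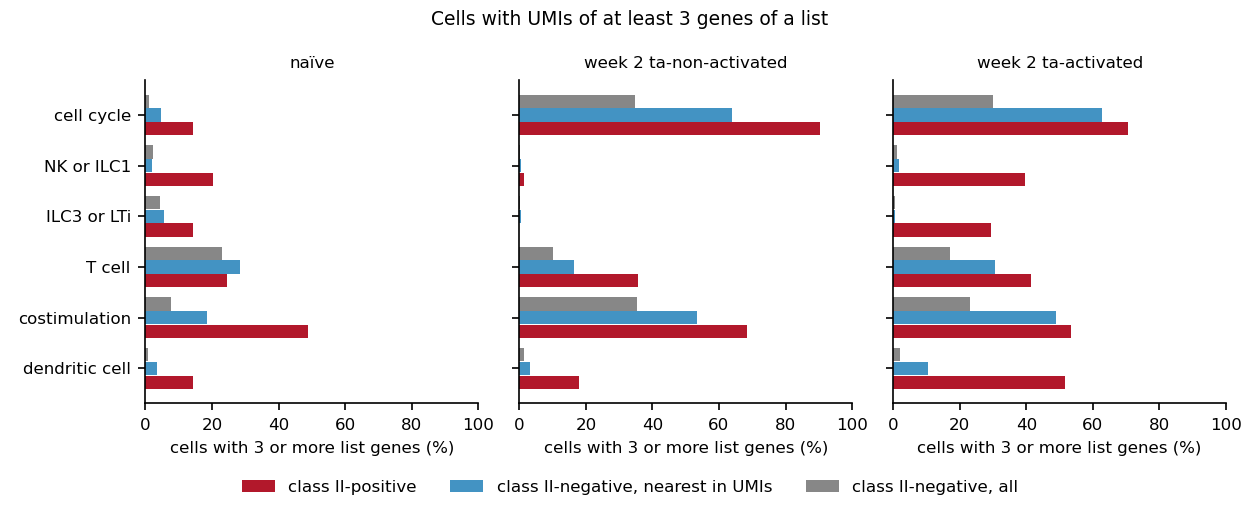
Share of cells with UMIs of at least 3 genes of a list (x axis, %) among class II-positive cells (red), class II-negative cells nearest in UMIs (blue) and all class II-negative cells (grey), in the 3 libraries with more than 8 class II-positive cells. Cell cycle genes separate the classes most in the week 2 ta-non-activated library (90.4% against 63.9% and 34.6%), and NK or ILC1 and ILC3 or LTi genes in the week 2 ta-activated library.

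The class II-positive cells with Gata3 or Il1rl1 UMIs had leading genes that are given here for each library without a test, ranked by CPM against the class II-negative cells of the library. In the 39 naïve cells the leading genes were Ifitm1, Birc5, Stmn1, Hist1h1b, Ube2c, Mki67, Top2a, Pclaf, Ccr10 and Tnfsf8, of which 7 are proliferation genes. Ifitm1, an interferon-induced membrane protein, was at 455 against 1.46 CPM but in 3 cells only, whereas Tnfsf8, the ligand of CD30, was at 330 against 22.8 CPM in 10 cells. In the 70 week 2 ta-non-activated cells Ifitm3 led, at 481 against 8.08 CPM and in 42 cells, followed by Ube2c, Hist1h1b, Birc5, Il31, Pclaf, Cenpa, Mki67, Nusap1 and Hmgb2. Birc5, Hist1h1b, Ube2c, Mki67 and Pclaf were thus among the leading genes of both. Il31, the itch cytokine, was at 115 against 1.30 CPM in 15 of these cells.

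In the 38 week 2 ta-activated cells Gzmc led, and of the 10 leading genes Klrd1 was on the NK or ILC1 list. Gzmc, which encodes granzyme C, stood at 9193 against 509 CPM and was found in 20 cells, and Fcer1g, a signalling adaptor, at 611 against 32.5 CPM in 23 cells. Cd160, an NK and ILC1 receptor, was at 136 against 4.47 CPM in 20 cells, Cd7 at 244 against 11.3 CPM in 14, Klrd1 at 156 against 7.92 CPM in 11 and Lta, which encodes lymphotoxin alpha, at 209 against 18.3 CPM in 32. Rasl11a, Selenom, Scin and Ifitm1 completed the 10.

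The 18 week 2 ta-activated class II-positive cells without Gata3 or Il1rl1 UMIs differed from the 38 with them in more than these 2 genes. The other 13 ILC2 genes summed to 655 CPM (566 to 756) against 7472 in the 38 cells, and the type 2 effector genes to 103 (69.8 to 148) against 5142. T cell genes summed to 5858 against 1246 CPM, of which Cd3g alone gave 5213, and interferon gamma response genes to 5537 against 2840 CPM, led by Cxcl10 at 1456. ILC3 or LTi genes summed to 683 against 195 CPM and NK or ILC1 genes to 790 against 539 CPM. The Cd3g UMIs lay in 8 of the 18 cells, and 264 of the 422 Cxcl10 UMIs came from 1 cell. These cells were thus low in ILC2 and type 2 genes, while dendritic cell genes were near equal at 473 (397 to 559) against 437 (406 to 469) CPM. Their median depth was 14264 UMIs against 37868.5, and class II-negative cells without the 2 genes in this library still held 4354 CPM of ILC2 and 2447 CPM of type 2 effector genes. Those 135 cells were also high in T cell genes, at 2959 CPM with Cd3g at 1359, against 600 and 176 in class II-negative cells with Gata3 or Il1rl1, and held 4640 CPM of interferon gamma response genes with Cxcl10 at 203.

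The 10 naïve cells without Gata3 or Il1rl1 UMIs held 3474 CPM of ILC2 genes against 7945 in the 39 with them, and 20.2 against 1642 CPM of cell cycle genes. NK or ILC1 genes summed to 1797 against 627 CPM and ILC3 or LTi genes to 788 against 325 CPM. The 465 class II-negative naïve cells with neither gene held 1193 and 1002 CPM of these 2 lists, so the ILC3 or LTi level was no higher in the class II-positive ones. The proliferating naïve class II-positive cells were thus among those with Gata3 or Il1rl1. Alveolar genes summed to 5190 against 33.3 CPM, but 223 UMIs of Sftpc, the surfactant gene of type II pneumocytes, came from 1 cell. These subsets were formed from the data within 1 library, and no test was made between them.

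**Figure D5:**
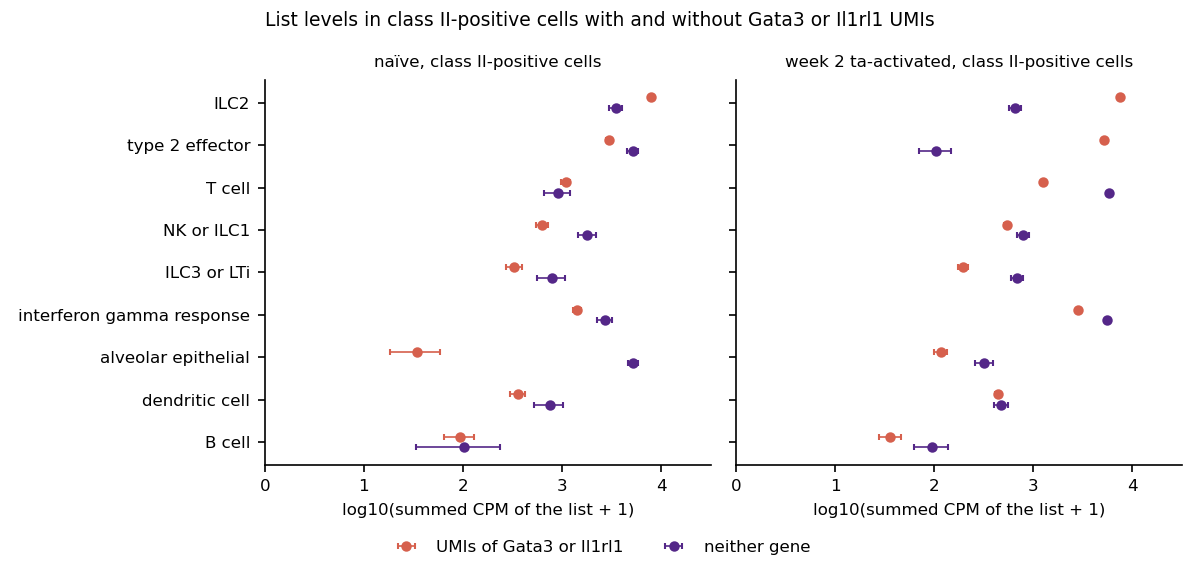
Summed level of each list (x axis, log10 of CPM plus 1) in class II-positive cells with (orange) and without (purple) UMIs of Gata3 or Il1rl1, in the naïve (39 and 10 cells) and week 2 ta-activated library (38 and 18 cells), with 95% exact Poisson intervals for counting error. In the week 2 ta-activated library the cells with neither gene lie lower for ILC2 (655 against 7472 CPM) and type 2 effector genes (103 against 5142 CPM) and higher for T cell genes.

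To ask whether activation changed the class II-positive cells, ta-activated and ta-non-activated libraries were compared within them (2 against 2 libraries). The week 3 library of each group gave few such cells. They were 8 ta-non-activated cells with 28717 UMIs in all and 1 ta-activated cell with 29087 UMIs. Of 7124 genes tested, 30 rose (0.421%) and 4 fell (0.0561%), 0.477% in all (262 with an unadjusted p under 0.05, edgeR). The libraries pair by week, and with the week as a block 4 genes passed, 3 of them among the 34. Ifi27l2a (edgeR adjusted p = 1.43e-04) and Ifitm1 (edgeR adjusted p = 3.21e-03) passed under the block, and none of the other 8 genes named here did. Il9, a type 2 cytokine, was at 8341 and 0 CPM in the ta-non-activated cells of weeks 2 and 3 and at 0 and 309 CPM in the ta-activated cells (log2 difference -5.51, SE 0.85, edgeR adjusted p = 6.57e-07), so that the groups overlapped. The interferon-induced genes Oas1a, Ifi44, Ifitm1 and Ifi27l2a were among the 10 with the lowest p. Ifi27l2a stood at 17.2 and 0 CPM in ta-non-activated and at 437 and 894 CPM in ta-activated cells (log2 difference 5.37, SE 1.20, edgeR adjusted p = 7.09e-03), and Ifi44 at 0 and 0 against 15.9 and 68.8 CPM (log2 difference 7.26, edgeR adjusted p = 4.58e-04). Ifitm1 stood at 44.0 and 0 against 1948 and 0 CPM. Ecm1, Car2, Gpr146, Ppic and Pigz, the other 5, differed by between 4.05 and 5.27 on the log2 scale. Of 13 type I interferon genes, 6 were tested and 2 rose (Oas1a and Ifi27l2a). The higher level after culture was not particular to class II-positive cells, since class II-negative cells went from 334 and 677 CPM of this list in ta-non-activated to 6050 and 9121 in ta-activated libraries.

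A test of whether the difference between the classes itself changed with activation called 88 genes higher (0.889%) and 94 lower (0.949%) of 9904, 1.84% in all (648 unadjusted, edgeR). The 10 genes with the lowest p were at 0 in the lone week 3 ta-activated cell, and 9 of them were at 0 in the 8 week 3 ta-non-activated cells, so these calls rest on the contrast of the 2 week 2 libraries. Among them, Pif1, a DNA helicase, and Sapcd2, a mitotic protein, stood at 12.1 and 21.8 CPM in week 2 ta-non-activated and 4.42 and 7.07 CPM in week 2 ta-activated class II-positive cells. Serpine2, a protease inhibitor, and Hbegf, an EGF receptor ligand, stood at 5.56 and 3.71 against 24.7 and 18.6 CPM. Of the type I interferon genes, 10 were tested for this change and 2 were called lower (Ifi27l2a and Ifitm3). Each of the 10 genes with the lowest p turned direction when a week 2 library was left out. The median over all genes then moved as well, from 0.04 to 7.82 without the week 2 ta-non-activated library. Without the week 2 ta-activated library it moved to -8.15, so the turns are not read for single genes.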

How the data were processed

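Per the labels and the study's methods, the authors prepared 10x Genomics libraries (3′ v3.1) and made the deposited UMI counts per gene and cell with Cell Ranger (3.0.2 in the submitters' processing notes and in the headers of 4 matrices, 6.0.0 in that of the naïve matrix) on GRCm38, with Seurat 3 for their own clustering. The counts are raw, and no deposited cell annotation was used. The 27726 genes common to the 5 matrices and every barcode with 200 genes or more and less than 5% of UMIs from mitochondrial genes were kept, after which class II-positive and class II-negative cells were selected. Doublets were scored with Scrublet (scanpy 1.11.5), which called 1, 1, 16, 0 and 0 cells and so did not work as a caller. Leaving out the 6% highest scores was therefore tried as an alternative, and these held 2, 4, 0, 1 and 0 class II-positive cells in the order naïve, ta-non-activated week 2 and 3, ta-activated week 2 and 3.

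UMIs were summed per library and class and tested with edgeR 4.0.16 in R 4.3.3 (glmQLFit, glmQLFTest, filterByExpr, TMM, Benjamini-Hochberg over all genes tested, threshold 0.05). Both sums of a pair come from the same library, which was the pairing factor in the comparison of the classes. DESeq2 1.42.0 served as an alternative. CPM are a gene's summed UMIs as parts per 1000000 of the class's total. Depth-matched cells are the 3 class II-negative cells of a library nearest in UMIs to each class II-positive cell, each used 1 time. Exact 95% intervals came from scipy 1.17.1. Nothing shows that the 2 libraries of a group differ only by culture or mice, since they also differ by week. The p-values rest largely on a spread pooled over genes. In the comparison of the classes each gene had 4 residual degrees of freedom, beside 30.17 from the pool. In the other edgeR tests it had 2, and those of the pool were infinite, so a gene's own spread did not count. A small p-value there does not show that the 2 libraries of a group agreed. Steps were tested on simulated data.

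The class II-positive cells, gene lists and alternatives were chosen with earlier results of these data known. Genes were named by these rules: the 6 genes that tell the cell types apart and the class II pathway list, up to 15 rises and 15 falls of largest log2 difference among genes called and changed the same way in all 5 libraries, the 10 lowest p of each of the other tests, the 10 leading genes of each subset of at least 20 cells (at least 100 CPM and 20 UMIs), and members of lists beside their counts. Further genes, such as Cd3g, Il22 and Batf3, were named after their values were seen. Ifi30 of the pathway list was not among the genes analysed. The level of a further B cell marker is not reported here.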

Additional observations from a re-analysis of the deposited data

Results flagged for a closer look

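In 10 genes the difference between class II-positive and class II-negative cells was itself tested and differed between ta-activated and ta-non-activated ILC2s (edgeR quasi-likelihood, 2 against 2 libraries). On the log2 scale the difference was lower in ta-activated ILC2s by -5.20 for Pif1 (SE 0.53, adjusted p = 1.88e-12), -4.02 for Sapcd2 and -3.95 for BC030867. It was higher by 6.57 for Tuba8 (SE 0.89, adjusted p = 1.11e-09), 5.39 for Prr29, 5.35 for Tnfrsf21, 5.29 for Kcnk1, 4.59 for Hbegf, 4.49 for Serpine2 and 4.22 for Rpl39l. The week 3 class II-positive cells held 1 UMI of Kcnk1 and none of the other 9 genes, in 8 cells and 1 cell, so these values set 1 library of each group, both from week 2, against the other.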

How the results depend on the processing

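In the comparison of the classes, the count of genes called moved from 133 to 36 with DESeq2, 213 without a filter on low counts, 219 with at least 2 UMIs of each gene of the rule, 62 with thinned cells, 10 against depth-matched cells and 330 in cells with Gata3 or Il1rl1 UMIs. It was 0 without the pairing by library (no replicate block; 151 unadjusted) and 0 without both week 3 libraries, also against depth-matched cells (641 unadjusted). Leaving out each library in turn gave 54 to 251 calls, with 54 without the week 3 ta-activated cell, 251 without the week 2 ta-activated and 208 without the week 3 ta-non-activated library. For the named genes, 311 alternative values kept direction and call, 153 kept direction only, and 1 reversed. This was Ccr10, at -0.29 with thinned cells, where the median over all genes was -0.74. H2-DMa, H2-DMb1, Ccr7 and Cd70 passed under every omission of a library.

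For the change of that difference with activation, 182 calls became 3 with DESeq2, 320 without the filter, 2 with thinned cells and 46 against depth-matched cells, and 0 to 425 with a library left out (0 without the week 2 ta-activated, 6 without the week 2 ta-non-activated, 54 without the week 3 ta-activated and 425 without the week 3 ta-non-activated library). Leaving out a library in turn gave ranges that crossed 0 for each named gene. Pif1 (-6.21 to 8.0), Sapcd2 (-13.30 to 9.07) and BC030867 (-12.43 to 8.07) turned when the fresh week 2 tumour library was left out. Tuba8 (-3.57 to 12.51), Rpl39l (-8.70 to 13.09), Prr29 (-5.82 to 11.29), Kcnk1 (-2.61 to 6.27), Tnfrsf21 (-3.31 to 11.33), Serpine2 (-6.21 to 12.15) and Hbegf (-5.17 to 9.78) turned when the cultured week 2 library was. The median over all genes, 0.04 in the main fit, was 7.82 without the fresh week 2 tumour library. It was -8.15 without the cultured week 2 library, so these turns go with a shift of all genes and are not read for single genes.

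Within class II-positive cells, 34 calls became 1 with DESeq2, 580 without the filter, 14 without the highest Scrublet scores, 3 with thinned cells, 4 with a replicate block for the week, 95 with all 5 libraries in the fit, and 5 to 390 with a library left out (18 and 359 without the ta-non-activated library of week 2 and 3, 5 and 390 without the ta-activated one). The difference in share of -1.24 points reversed to 0.0176 with thinned cells and ranged from -2.99 to 0.515 with a library left out, the latter without the fresh week 2 tumour library. The causes were not tested. Depth limits the week 3 class II-positive cells, where 3 UMIs amount to 104 CPM in the 8 ta-non-activated cells and 103 CPM in the ta-activated cell.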
